A study of Mus musculus with 24 samples.

Results

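Ahnak and 5 caveolar genes, Cavin1, Cavin2, Cavin3, Cav1 and Cav2, were followed through 24 RNA sequencing libraries of mouse brain. The 6 genes were taken by symbol from a table of 40836 genes, and all 6 were among the 20437 genes that passed a filter on low counts. They were selected on earlier results of these same libraries; which contrast they were chosen by is not recorded. Every difference between time codes, E codes and sets of columns is therefore given as a description of these genes. The adjusted p-values of the fits place them among all genes, and those of the correlations only among the pairs computed. Neither kind is independent support.

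Polyadenylated RNA was extracted from brain with TRIzol, and each library name joins a code E3 or E4 with a time of 05, 10 or 15 and a running number. These make 6 groups of 4 libraries: E3-05, E4-05, E3-10, E4-10, E3-15 and E4-15. The labels spell out neither code, and they give no strain, age, treatment or brain region, although the series title concerns ApoE4, microglia, AsxL1 and LXRα. The titles name 6 months, 2 for each time code, and call the libraries biological replicates. Whether each came from its own animal is not stated, so the p-values reflect only how far these libraries spread, which may be technical.

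Caveolae are flask-shaped pits of the plasma membrane, abundant in endothelium, smooth muscle and fibroblasts. Caveolins, which insert into the inner leaflet of the membrane, and cavins, which coat the pit from the cytoplasm, are both needed to shape them. In brain, endothelial cells of the blood-brain barrier hold few caveolae in capillaries and more in arterioles. Ahnak encodes a giant scaffold protein that binds the S100A10 and annexin A2 complex at the plasma membrane and regulates voltage-gated calcium channels.

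The libraries fell into 2 sets by markers of brain region, across the labelled groups. The labels give each library a column number, and 8 libraries have a number that is a multiple of 3 (1 each in E3-05, E4-05, E4-10 and E3-15, and 2 each in E3-10 and E4-15). Their 12 cerebellum and hindbrain markers summed to 1341 to 5994 CPM, against 227 to 388 CPM in the other 16 libraries. CPM are counts scaled by the library total times its TMM factor. The 8 forebrain markers summed to 89.2 to 176 CPM against 399 to 1312 CPM. Snap25, a synaptic protein of neurons, was at 1876 to 3226 CPM in all 24 libraries. The depth was 37.4 M counts in the shallowest library (M, mega) and 99.5 M in the deepest. Gh, the pituitary growth hormone gene, exceeded 1000 CPM in E3-05 4 and E4-10 2, and Hbb-bs, a beta-globin gene, exceeded 100 CPM in E3-05 1, E3-05 2 and E4-05 1. Differences below are log2 fold changes, with the standard error (SE), from an edgeR quasi-likelihood fit with 6 groups and a term for the columns whose number is a multiple of 3. To pass, a gene needed an adjusted p (Benjamini-Hochberg, over all 20437 genes) under 0.05. The column term was itself chosen with earlier results known.

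The promoters of 4 of the genes are shown because these form the pairs that the values below set side by side. Ahnak and Cavin1 had levels that ran together across libraries, though in 1 set of columns this rested in part on 2 libraries. Cav1 and Cav2 are neighbours on 1 chromosome, of which only Cav2 was lower in most libraries of 1 set of columns, with overlap between the 2 sets. RefSeq (GRCm38.p6, another build than the mm39 of the counts) gave a promoter for 5 of the 6 genes, in 7 windows. Each stretch below is the 250 bases before an annotated start, read 5′ to 3′ on the strand of the gene, with matches to the motifs searched in capitals.
Ahnak (chr19:8989034-8989283, plus strand): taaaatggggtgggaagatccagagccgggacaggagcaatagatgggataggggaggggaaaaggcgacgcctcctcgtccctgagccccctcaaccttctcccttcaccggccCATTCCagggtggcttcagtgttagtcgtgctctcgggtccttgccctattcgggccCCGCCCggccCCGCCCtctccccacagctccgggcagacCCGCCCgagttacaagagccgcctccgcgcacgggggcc
Cavin1 (chr11:100970618-100970867, minus strand): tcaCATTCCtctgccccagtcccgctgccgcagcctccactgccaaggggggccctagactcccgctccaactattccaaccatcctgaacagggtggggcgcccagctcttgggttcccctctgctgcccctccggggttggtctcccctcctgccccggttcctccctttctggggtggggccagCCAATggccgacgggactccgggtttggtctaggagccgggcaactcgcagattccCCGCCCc
Cav1 (chr6:17306085-17306334, plus strand): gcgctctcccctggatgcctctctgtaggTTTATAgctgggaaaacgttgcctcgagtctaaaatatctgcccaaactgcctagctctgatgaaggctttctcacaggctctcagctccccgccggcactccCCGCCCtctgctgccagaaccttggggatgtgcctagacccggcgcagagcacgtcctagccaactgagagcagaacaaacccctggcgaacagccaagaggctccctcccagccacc
Cav2 (chr6:17280935-17281184, plus strand): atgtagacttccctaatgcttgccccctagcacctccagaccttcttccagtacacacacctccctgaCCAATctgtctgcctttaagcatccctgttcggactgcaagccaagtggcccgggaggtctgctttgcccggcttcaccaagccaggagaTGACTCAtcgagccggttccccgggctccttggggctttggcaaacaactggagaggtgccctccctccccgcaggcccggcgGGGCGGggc

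Both strands were searched for 7 motifs. The GC box, which Sp1 binds, was searched as GGGCGG. The motif of the TEAD factors was GGAATG. That of AP-1, the Fos and Jun dimer, was TGANTCA. The CCAAT box, bound by NF-Y, was searched as written. The TATA box was TATAAA. The E-box was CACGTG. The CArG box of serum response factor was searched as CC, a run of A or T bases of fixed length, and GG. No match shown overlapped another. The Ahnak window held 3 GC boxes, beginning 78, 68 and 39 bases before the start, and a TEAD match 135 bases before it. The Cavin1 window held a TEAD match 247 bases before its start, a CCAAT match at 63 and a GC box at 7. A TEAD match was present in 12.6% of all 32851 windows of this length, and a GC box in 32.7%. The Cav1 window shown held a GC box 118 bases before the start and a TATAAA match, on the other strand, at 221, and the window of a second annotated Cav1 start held no match to any of the 7 motifs. Cav2, whose window begins 25.15 kb before that of Cav1 on the same strand, held CCAAT at 182, an AP-1 match at 92 and a GC box at 9. CCAAT was in 33.8% of all windows, AP-1 in 6.75% and TATAAA in 12.4%. The E-box, in 6.02% of all windows, and the CArG box, in 1.47%, had no match in any of the 7 windows. The windows were GC-rich at 66.4% for Ahnak, 67.6% for Cavin1, 59.6% for Cav1 and 62.0% for Cav2, against a median of 52.4% over all windows. A match is a description of the letters, not a bound site.

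All 6 genes were expressed at moderate levels in every library. Per kb of annotated exon, Cavin3, a cavin that binds protein kinase C delta, had the highest median level at 10.7 CPM per kb (range 9.35 to 13.0 over 24 libraries). Cav2, the partner caveolin of Cav1, followed at 9.21 CPM per kb (4.53 to 11.5), and Cavin1, the cavin required for caveola formation, at 8.86 (6.80 to 13.7). Cav1, the main structural caveolin outside striated muscle, was at 6.44 CPM per kb (4.93 to 9.77) and Cavin2, which helps to bend the membrane, at 4.42 (3.46 to 5.24). The ranges of these 5 overlapped from each to the next in this order. Ahnak was lowest at 2.07 CPM per kb (1.62 to 3.24), below every library of Cavin2, although its 19.9 kb of exon gave it the highest median CPM, 41.2. Lengths come from GENCODE M21 on GRCm38. Of the exon bases of Cavin3, 22.5% are shared with Gm45667 on the opposite strand, and the sources used here do not give the strand setting of the counting, so reads of the 2 genes may not be separable there.

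Ahnak was high at time code 10. In E3-10 its level was 57.7, 64.6, 63.0 and 56.4 CPM, and in E4-10 it was 54.3, 54.0, 48.9 and 41.2 CPM. In E3-15 it was 36.9, 35.3, 39.1 and 36.9 CPM, and in E4-15 38.6, 32.3, 40.7 and 39.4 CPM. All 8 libraries of time code 10 lay above all 8 of time code 15, the nearest being E4-10 4 at 41.2 and E4-15 3 at 40.7 CPM. In E3-05 the level was 39.3, 41.3, 33.4 and 52.4 CPM, and in E4-05 it was 42.0, 35.6, 51.4 and 42.4 CPM. Time code 05 therefore overlapped both others: 6 of 8 libraries of time code 10 were above its highest, E3-05 4. Ordered by mean, the groups were E3-10 (60.4 ± 3.97 CPM, SD, n = 4), E4-10 (49.6 ± 6.13), E4-05 (42.8 ± 6.53), E3-05 (41.6 ± 7.92), E4-15 (37.8 ± 3.74) and E3-15 (37.1 ± 1.58). E3-10 did not overlap E4-10, while each later neighbour in this order overlapped the next.

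The fitted fall of Ahnak from time code 10 to 15 was -0.55 (SE 0.08), a fold of 0.683, with an edgeR adjusted p of 0.0423. It was the only 1 of 20437 genes to pass, a background of 0.00489%. Among all genes, 0.0245% had every library of time code 10 above every library of time code 15, and of the 6 genes here Ahnak alone did. The difference was also present inside each set of columns: 54.0 to 57.7 CPM (3 libraries) against 38.6 to 39.4 (3 libraries) in columns that are multiples of 3, and 41.2 to 64.6 (5) against 32.3 to 40.7 (5) in the others. The size held at -0.52 to -0.62 under every alternative tried. The call depended on the setting. It was kept with DESeq2 (adjusted p = 1.32e-05), limma-voom (0.0393), upper-quartile (0.0414) or RLE scaling (0.0331), a filter of 1 CPM (0.0389), all genes with a count (0.0137) and without the 2 libraries high in Gh (0.0150). It was kept without 7 of the 24 libraries taken singly (E3-05 3, E3-05 4, E4-05 2, E4-05 3, E3-10 4, E4-10 4 and E4-15 3) and lost without any of the other 17, with edgeR adjusted p from 0.00352 to 0.164. It was also lost with no column term (0.0885) and with a block for the library numbers (0.181). In the 16 other columns alone (0.999) and without the 3 libraries high in Hbb-bs (0.0962) it was lost too. In a bulk sample, fewer cells that express a gene and less RNA per cell cannot be told apart.

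**Figure D1:**
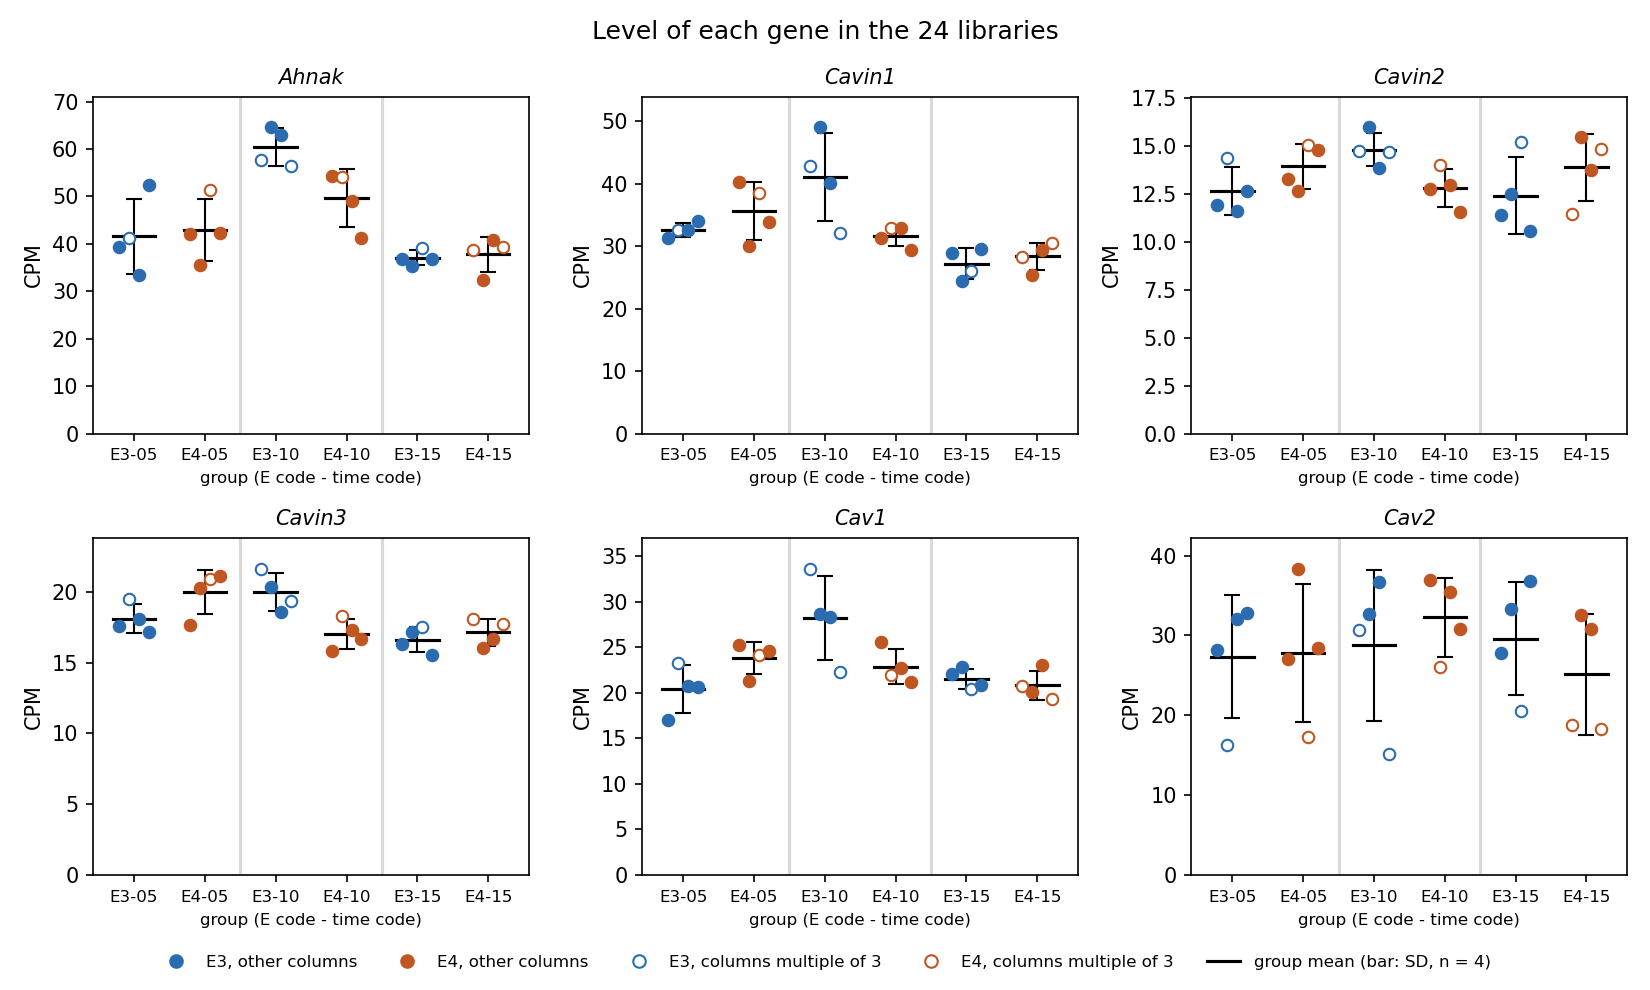
CPM (vertical axes, from 0) of each of the 6 genes in the 4 libraries of each group (horizontal axes), with the group mean and SD; open points are libraries whose column number is a multiple of 3. Ahnak was highest in both groups of time code 10, from 41.2 to 64.6 CPM, and the open points of Cav2 lie low, from 15.1 to 30.7 CPM.

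From time code 05 to 10, the fitted difference of Ahnak was 0.37 (SE 0.08, edgeR adjusted p = 0.386), rank 16 of 20437 genes by p. No gene passed in this comparison (0%), where 824 had an unadjusted p under 0.05, and DESeq2 called 18 genes, Ahnak among them at an adjusted p of 0.0457. Over all genes, 0% had all libraries of time code 10 above all of 05. From 05 to 15 the difference of Ahnak was -0.18 (SE 0.09, adjusted p = 0.956).

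Of the cavins, Cavin1 was nearest to Ahnak in its course. In E3-10 it was at 42.9, 49.1, 40.1 and 32.2 CPM, and in E4-10 at 31.2, 32.9, 32.9 and 29.4 CPM. In E3-15 it was at 28.8, 24.4, 26.0 and 29.6 CPM, and in E4-15 at 28.2, 25.4, 29.3 and 30.5 CPM. In 7 of 8 libraries of time code 10 the level was above every library of 15, the exception being E4-10 4. At time code 05 it was 31.4, 32.5, 32.6 and 34.0 CPM in E3 and 40.2, 30.0, 38.5 and 33.9 CPM in E4. The high libraries were thus 3 of E3-10 and 2 of E4-05, and 7 of 8 libraries of time code 05 also lay above all of 15. The stricter case of all 8 above, which Cavin1 did not meet, held for 0.0147% of all genes from 05 and 0.0245% from 10. How many genes had 7 of 8 above was not computed. The fitted difference of time code 15 from 10 was -0.38 (SE 0.08, edgeR adjusted p = 0.323), rank 4 of 20437, and from 05 it was -0.30 (SE 0.08, adjusted p = 0.400). DESeq2 called the former, with an adjusted p of 0.0155. Leaving out E3-10 4 also made edgeR call it.

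Cavin2 and Cavin3 varied little. Cavin2 ran from 10.6 to 16.0 CPM over the 24 libraries (median 13.5), with time code 15 differing from 10 by -0.07 (SE 0.08). Cavin3 ran from 15.5 to 21.6 CPM (median 17.7). Its time code 15 libraries, at 15.5 to 18.1 CPM, had the lowest median of the 3 times and overlapped both others, with a difference of -0.19 (SE 0.05, adjusted p = 0.363) from 05 and of -0.13 (SE 0.05, adjusted p = 0.600) from 10. Between 05 and 10 Cavin3 differed by -0.06 (SE 0.05), the 1 gene of the 6 whose fitted value there was below 0.

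Among the caveolins, Cav1 was high in 3 libraries of E3-10, which stood at 33.6, 28.7 and 28.4 CPM, with the other at 22.3. E4-10 was at 25.6, 21.9, 22.8 and 21.2 CPM. E3-05 was at 17.0, 23.3, 20.8 and 20.7 CPM, and E4-05 at 25.3, 21.3, 24.2 and 24.6 CPM. Those 3 libraries of E3-10 lay above all 20 libraries outside that group, a pattern whose share over all genes was not computed. Time code 15 held from 19.3 to 23.0 CPM (median 20.8, n = 8). Its fitted difference from 10 was -0.26 (SE 0.08, adjusted p = 0.497), and 10 differed from 05 by 0.20 (SE 0.08, adjusted p = 0.999). For Cav2 the difference of 15 from 10 was -0.18 (SE 0.11) and of 10 from 05 0.26 (SE 0.11), neither past the threshold.

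From time code 10 to 15 all 6 fitted values were below 0, with a median of -0.22 against 0.00 (8.80e-05) over all genes tested. An unadjusted p under 0.05 was found for 4 of the 6, and for 7.72% of all genes. From 05 to 15, 5 of 6 were below 0 and 0 of 6 passed, against 11 of 20437 genes (0.0538%). An unadjusted p under 0.05 was found there for 3 of the 6, and for 931 of all genes (4.56%). The comparisons of 10 with 05 and with 15 share the libraries of time code 10, and both with 15 share those of 15.

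**Figure D2:**
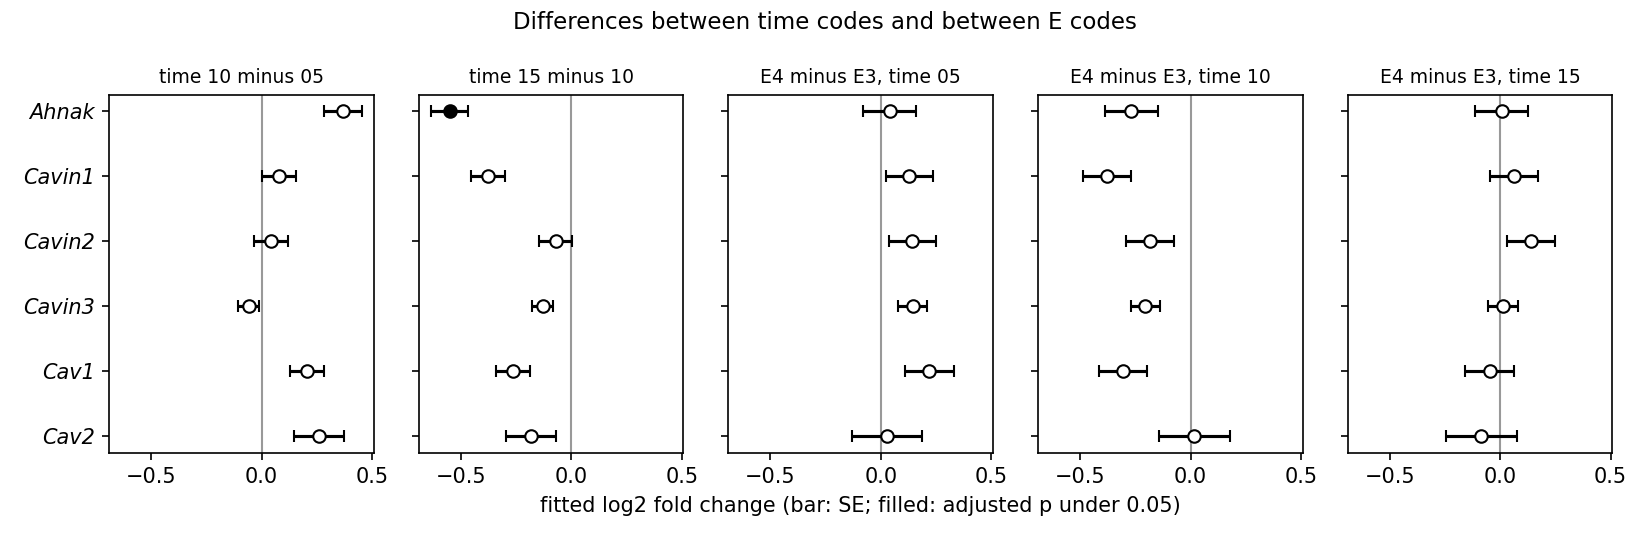
Fitted log2 fold change (horizontal axes, bars are the SE) of the 6 genes for 2 comparisons of time codes and for E4 minus E3 at each time code. The value of Ahnak for time code 15 minus 10, -0.55, is the only filled point; at time code 10, 5 of the 6 values for E4 minus E3 are below 0.

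Between E codes no gene of the 6 passed at any time code. At time code 10, 5 of 6 fitted values for E4 minus E3 were below 0: Cavin1 at -0.38 (SE 0.11, adjusted p = 0.557), Cav1 at -0.31 (SE 0.11, adjusted p = 0.880), Ahnak at -0.27 (SE 0.12, adjusted p = 0.943), Cavin3 at -0.20 (SE 0.07, adjusted p = 0.795) and Cavin2 at -0.18 (SE 0.11, adjusted p = 0.943). Cav2 was at 0.02 (SE 0.16). Unadjusted p-values were under 0.05 for 4 of the 6 and for 5.01% of all genes, and 2 genes passed over the whole table (0.00979%). All 4 libraries of E3-10 were above all 4 of E4-10 for Ahnak and for Cavin3, which read 21.6, 20.4, 18.6 and 19.3 CPM in E3-10 and 15.8, 18.3, 17.3 and 16.7 CPM in E4-10. Such a gap in that direction was found in 1.31% of all genes.

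At time code 05 the order was the other way, with all 6 fitted values above 0 (0.03 to 0.22). Cav1 had the largest, 0.22 (SE 0.11), and Cavin3 the smallest unadjusted p, 0.0424, with an adjusted p of 0.994. At time code 15, 4 of 6 were above 0 and the values ran from -0.09 to 0.14. Averaged over the time codes they ran from -0.07 to 0.03. In each of these 3 comparisons 0% of genes passed with edgeR; unadjusted p-values under 0.05 numbered 549 at 05, 391 at 15 and 557 in the average, and DESeq2 and limma-voom called 0 genes in any of the 3.

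The change of the E4 minus E3 difference itself was tested between time codes. From 05 to 10 all 6 values were below 0: Cav1 -0.53 (SE 0.16), Cavin1 -0.51 (SE 0.15), Cavin3 -0.35 (SE 0.09), Cavin2 -0.33 (SE 0.15), Ahnak -0.31 (SE 0.17) and Cav2 -0.01 (SE 0.23). The smallest edgeR adjusted p was 0.562, for Cavin3, and 0% of all genes passed. Unadjusted p-values were under 0.05 for 4 of the 6 and for 1071 of all genes (5.24%). DESeq2 called 19 genes, 0 of them among the 6. From 10 to 15 the value was 0.44 (SE 0.16) for Cavin1 and 5 of 6 were above 0. Of the 6, 0 passed, against 0.00489% of all genes, and 3 had an unadjusted p under 0.05, against 2.79% of all genes. From 05 to 15 all 6 were below 0, at -0.27 or nearer to 0, with 0% of genes past the threshold, 563 at an unadjusted p under 0.05 and 0 called by DESeq2.

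Titled months within a time code gave 0 of 6 genes past the threshold. Ahnak differed by 0.18 (SE 0.12) between February and January, by -0.14 (SE 0.12) between April and March, and by 0.11 (SE 0.12) between June and May. Each was smaller than its difference of -0.55 between time codes 10 and 15. April minus March was below 0 for all 6, with Cav2 at -0.37 (SE 0.15, edgeR adjusted p = 0.438) and Cav1 and Cavin1 both at -0.21 (SE 0.11 and 0.10). Over all genes 0.00489% passed for April minus March (2078, or 10.2%, at an unadjusted p under 0.05, and 89 called by DESeq2), 0% for February minus January (1021 at an unadjusted p under 0.05, 3 called by DESeq2) and 0% for June minus May (460 and 1). Of the 6 genes, only Cav2 for April minus March had an unadjusted p under 0.05 between months. Months and time codes cannot be told apart, since each month belongs to 1 time code.

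Cav2 had the largest difference of the 6 between the sets of columns, although the sets overlapped. In the 8 libraries from columns that are multiples of 3 it was at 16.2 CPM in E3-05 2, 17.3 in E4-05 3, 30.7 in E3-10 1, 15.1 in E3-10 4, 26.0 in E4-10 2, 20.5 in E3-15 3, 18.8 in E4-15 1 and 18.3 in E4-15 4. The other 16 libraries ran from 27.0 to 38.4 CPM (median 32.6). Of the 8, 7 were thus below all 16, and E3-10 1 was inside their range. The fitted difference was -0.70 (SE 0.10), a ratio of 0.616, and -0.80 without E3-10 1. For the other 5 genes it lay between -0.01 and 0.12, the largest being Cavin2 at 0.12 (SE 0.07) and Cavin3 at 0.11 (SE 0.04). Among all genes 13.7% had sets of columns that did not overlap, and 0 of the 6 genes were among these. How many genes had 7 of the 8 below all 16 was not computed. The 2 highest of the 8, E3-10 1 and E4-10 2, also had the lowest cerebellum and hindbrain marker sums of the 8 (1341 and 2649 CPM). Both are March libraries of time code 10. Their part in the Cav2 differences between time codes and months was not tested. No test is given, because the split was noticed in these data.

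**Figure D3:**
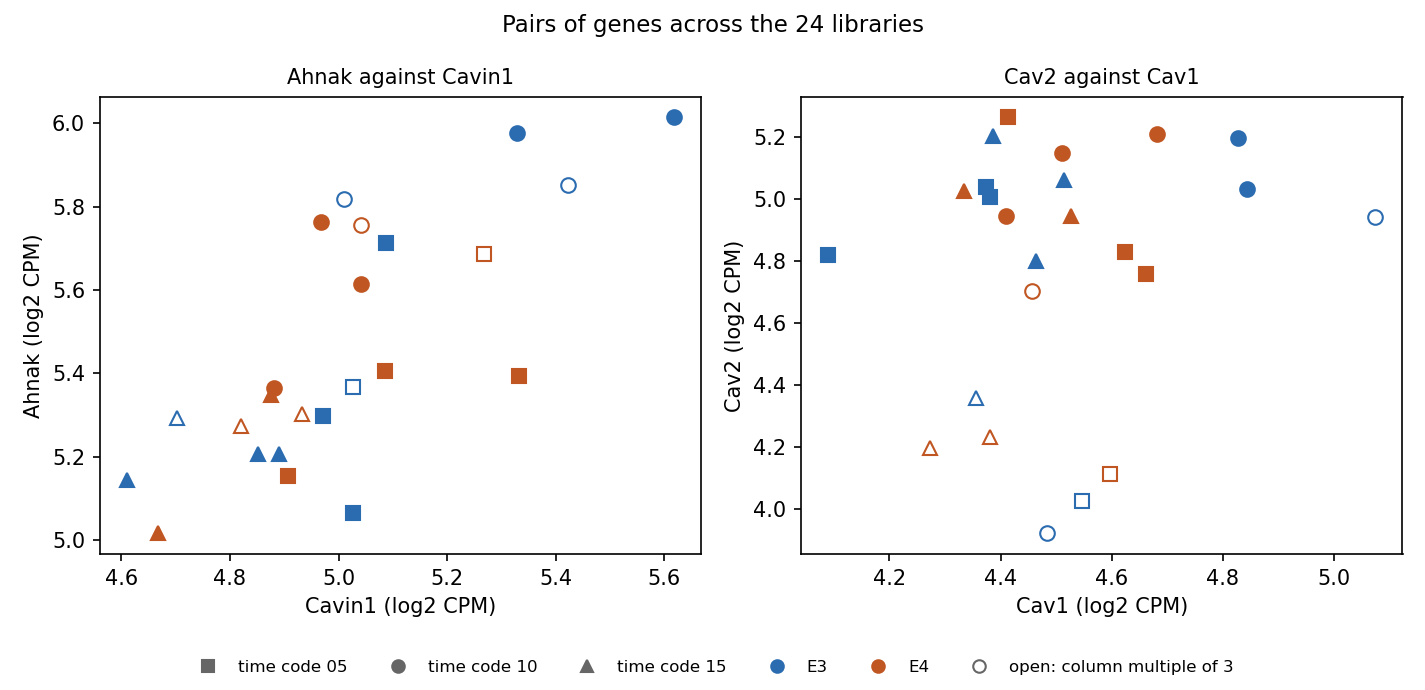
Log2 CPM of Ahnak against Cavin1 (left) and of Cav2 against Cav1 (right) in the 24 libraries, by time code (shape), E code (colour) and column set (open points are multiples of 3). Ahnak and Cavin1 had r = 0.76 in both sets, which fell to 0.51 in the filled points without the 2 libraries farthest from the Ahnak median. Of the 8 open points of Cav2, 7 lie below all 16 filled ones at like levels of Cav1.

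Within each set of columns, correlations between the genes were computed over libraries for 15 pairs in 2 sets, with p adjusted over the 30. Libraries of 1 group enter together, so differences between groups are part of each r. Ahnak and Cavin1 had Pearson r = 0.76 in the 16 libraries (permutation p = 0.00072, adjusted 0.0072; Spearman rho = 0.73, permutation p = 0.00185, adjusted 0.0277). Without the 2 libraries farthest from the median of Ahnak, r was 0.51, so it rested in part on them. In the 8 libraries r was 0.76 as well (exact p = 0.0211, adjusted 0.0906; rho = 0.81, exact p = 0.0218, adjusted 0.0933), and 0.76 without the 2 farthest. Ahnak and Cav1 gave r = 0.69 in the 16 (permutation p = 0.0026, adjusted 0.0165; rho = 0.64, permutation p = 0.0094, adjusted 0.0536), which fell to 0.40 without the 2 farthest and so rested in part on them. In the 8, they gave r = 0.66 (exact p = 0.0275, adjusted 0.0917; rho = 0.71, exact p = 0.0576, adjusted 0.173), and 0.62 without the 2 farthest.

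The highest r of the 30 was between 2 caveolar coat genes in the 8 libraries. Cavin1 and Cavin3 had r = 0.93 there (exact p = 0.00067, adjusted 0.0072; rho = 0.90, exact p = 0.00456, adjusted 0.0385), and 0.85 without the 2 farthest. In the 16 they had r = 0.56 (permutation p = 0.0253, adjusted 0.0917; rho = 0.68, permutation p = 0.00513, adjusted 0.0385), and 0.44 without the 2 farthest. Cavin3 and Cav1 had r = 0.89 (exact p = 0.000149, adjusted 0.00446; rho = 0.98, exact p = 0.000397, adjusted 0.0119), and 0.89 again without the 2 farthest. In the 16 libraries Cavin3 and Cav1 were at r = 0.36 (permutation p = 0.175, adjusted 0.327, rho = 0.31, permutation p = 0.234, adjusted 0.467), and 0.07 without the 2 farthest. Cavin1 and Cav1 were the only pair with an adjusted p under 0.05 for r in both sets. In the 16 they had r = 0.63 (permutation p = 0.00944, adjusted 0.0472, rho = 0.41, adjusted 0.251), and 0.41 without the 2 farthest. In the 8 they had r = 0.86 (exact p = 0.00275, adjusted 0.0165, rho = 0.86, adjusted 0.0536), and 0.77 without the 2 farthest. Cav1 and Cav2, the neighbours, had r = 0.18 in the 16 (permutation p = 0.504, adjusted 0.658; rho = 0.13, permutation p = 0.641, adjusted 1.0) and 0.58 in the 8 (exact p = 0.139, adjusted 0.278; rho = -0.02, exact p = 0.977, adjusted 1.0). The r in the 8 turned to -0.43 without the 2 libraries farthest from the median of Cav1, so it rested on those. Of the 10 values of r with Cav2, 0 had an adjusted p under 0.05.

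The genes most like Ahnak over the 16 libraries, of 14836 ranked by Pearson r of log2 CPM, were Notch3, a receptor of pericytes and smooth muscle, at 0.88, Ptgfr, the prostaglandin F receptor, at 0.82, Nes, the intermediate filament nestin, at 0.82, and Alkbh5, an RNA demethylase, at 0.81. In the 8 other libraries the same r were 0.31, -0.04, 0.66 and 0.70. The genes most like Cav1 were Clk1, a splicing kinase, at 0.86, Gm33649 at 0.85, Zcchc17 at 0.84 and Msantd2 at 0.84, and in the 8 libraries -0.50, -0.54, 0.45 and -0.41. These are the top of a ranking of all genes, so their r in the 16 are high by choice, and 3 of the 4 for Cav1 had the opposite sign in the 8.

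Lists of other genes of the caveola and of Ahnak complexes held no gene past the threshold in these comparisons. Of 16 further caveolar and caveola-associated genes, 0 passed from time code 10 to 15, 9 were above 0 and 7 below, and the median was 0.02. Ehd1 (0.24, SE 0.11, adjusted p = 0.618), a membrane-remodelling ATPase, and Ptgis (-0.32, SE 0.15, adjusted p = 0.651), prostacyclin synthase, had the smallest p. For E4 minus E3 at time code 10, 13 of the 16 were below 0 (median -0.20, 0 passed), with Ehd2, the ATPase at the neck of caveolae, at -0.39 (SE 0.13, adjusted p = 0.795). Cav3, the muscle caveolin, was at 0 to 0.306 CPM and Cavin4, the muscle cavin, at 0.0582 to 1.06 CPM.

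Of 10 Ahnak relatives and binding partners, 7 were below 0 from time code 10 to 15 (median -0.17, 0 passed). Anxa2, the annexin that Ahnak binds, was at -0.29 (SE 0.11, adjusted p = 0.600) and its partner S100a10 at -0.19 (SE 0.11, adjusted p = 0.706). At time code 10 Anxa2 differed between E4 and E3 by -0.55 (SE 0.15, adjusted p = 0.516). Of 21 tested YAP, TEAD and SRF factor and target genes, 13 were below 0 from 10 to 15 (median -0.05) and 15 were below 0 for E4 minus E3 at time code 10 (median -0.21); 0 passed in either. Vcl, vinculin, had the smallest adjusted p of the latter, 0.0818, at -0.31 (SE 0.06). Of 7 flotillins and other raft scaffold genes, 5 were above 0 from 10 to 15 (median 0.05) and 0 passed.

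Most markers of the cells in which caveolae are abundant had fitted values below 0 in the same comparisons, as did markers of some other cell types. From time code 10 to 15, 14 of 15 endothelial markers (median -0.12), 12 of 13 tested mural markers of pericytes and smooth muscle (median -0.18) and 12 of 14 fibroblast markers (median -0.14) were below 0, and 0 passed. For E4 minus E3 at time code 10, all 14 fibroblast markers (median -0.76), 11 of 13 mural (median -0.41) and 14 of 15 endothelial (median -0.15) were below 0. Lmod1, a smooth muscle actin nucleator, passed at -1.13 (SE 0.16, adjusted p = 0.0111); the other 41 did not. Over all genes the medians were 0.00 (8.80e-05 and -0.00227).

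The fibroblast markers summed to 485 to 639 CPM in E3-10 and to 249 to 330 CPM in E4-10, with no overlap. In E3-05, E4-05, E3-15 and E4-15 they summed to 301 to 454, 328 to 616, 309 to 370 and 327 to 602 CPM. The part of fibroblasts in the level of Ahnak in these groups was not tested. The mural sum was 438 to 591 CPM in E3-10 and 421 to 468 in E4-10, and 416 to 470, 441 to 491, 423 to 476 and 412 to 501 CPM in the same other groups. By mean log2 CPM of the list, mural markers in E3-10 also lay above all of E4-10. So did the lists of astrocytes and of further caveolar genes. The endothelial sum was 419 to 593 CPM in E3-10 and 451 to 508 in E4-10, and 445 to 497, 460 to 549, 414 to 532 and 422 to 477 CPM in the others. Of their defining markers 0 of 9 were at 0 in any library: Cldn5, the barrier claudin, was at 27.5 CPM or more, Pdgfrb of pericytes at 34.2 or more and Col1a1 of fibroblasts at 9.45 or more. Lists of cells and regions not tied to caveolae ran with the 6 genes in some comparisons and against them in others. For E4 minus E3 at time code 10, 10 of 10 choroid plexus markers (median -1.10), 8 of 8 oligodendrocyte (median -0.31), 7 of 8 astrocyte (median -0.20) and 11 of 12 cerebellum and hindbrain markers (median -0.40) were below 0, all with a median farther from 0 than the endothelial one. In the same comparison 7 of 8 forebrain (median 0.54), 8 of 8 pituitary (median 3.38) and 5 of 7 ependymal markers (median 0.04) were above 0. Microglia and neuron markers were each split, 4 above and 4 below, and 3 of 5 red blood cell markers were below 0. From time code 10 to 15, 7 of 8 astrocyte markers (median -0.08) and 6 of 8 microglia markers (median -0.07) were below 0. So were 4 of 5 red blood cell markers (median -0.24) and 7 of 8 pituitary markers (median -2.91). Above 0 were 10 of 10 choroid plexus (median 0.36), 6 of 8 oligodendrocyte (median 0.05) and 11 of 12 cerebellum and hindbrain markers (median 0.55). Markers of forebrain (6 of 8, median 0.33), neurons (5 of 8, median 0.03) and ependymal cells (4 of 7, median 0.12) were also mostly above 0. In these lists 0 genes passed. The part of all these cell types in the values of the 6 genes was not tested.

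**Figure D4:**
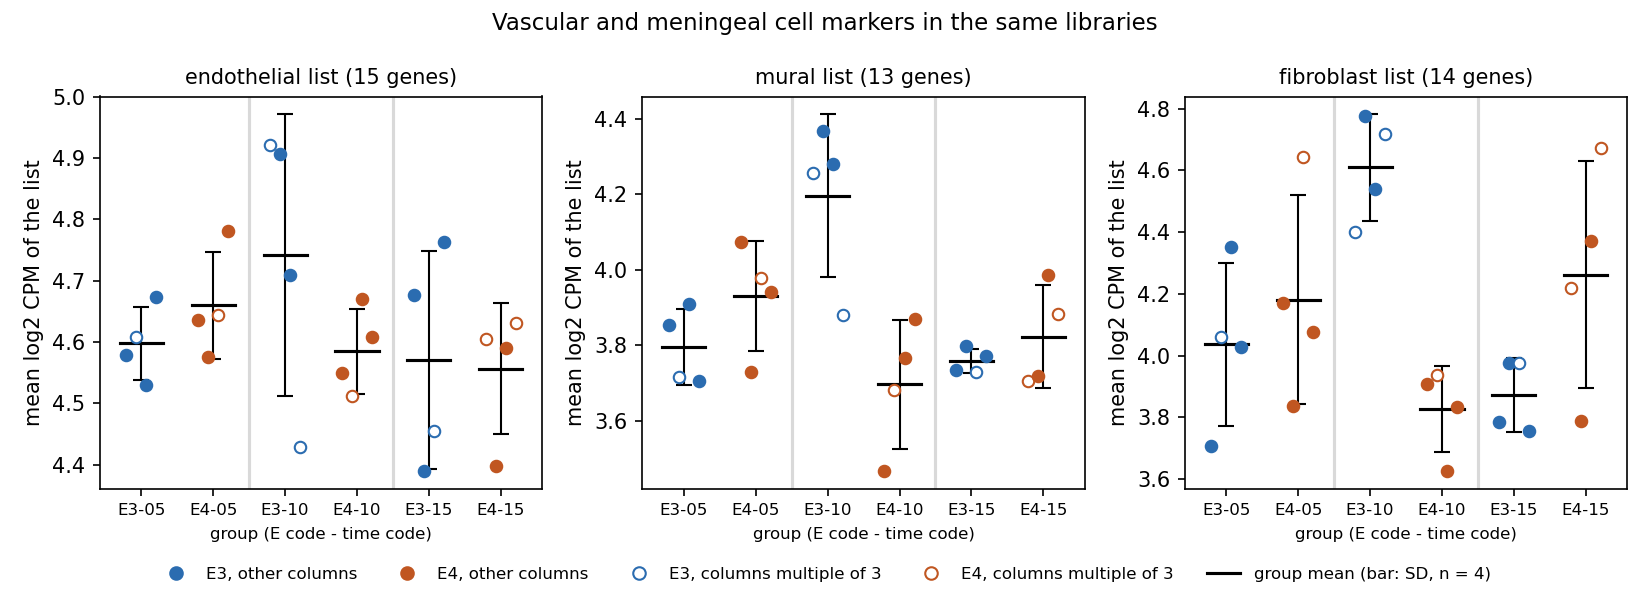
Mean log2 CPM (vertical axes, which do not start at 0) of the endothelial, mural and fibroblast marker lists in each library by group, with group mean and SD; open points are columns that are multiples of 3. In the fibroblast list the 4 libraries of E3-10 (4.40 to 4.78) lie above the 4 of E4-10 (3.63 to 3.94). The same holds for the mural list (3.88 to 4.37 against 3.47 to 3.87), while the endothelial list overlaps.

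Correlations with the mean log2 CPM of these 3 lists, added after the values were seen, were computed for 18 pairs in 2 sets, with p adjusted over the 36. Differences between groups are part of these r too, and the p are not independent support. Cavin1 gave r = 0.76 with the endothelial mean in the 16 libraries (permutation p = 0.00058, adjusted 0.0209; rho = 0.57, permutation p = 0.023, adjusted 0.225), and 0.50 without the 2 libraries farthest from the endothelial median. In the 8 libraries r was 0.74 (exact p = 0.0365, adjusted 0.114; rho = 0.62, exact p = 0.115, adjusted 0.376), and 0.59 without the 2 farthest. Ahnak gave 0.61 with the endothelial mean in the 16 (permutation p = 0.0113, adjusted 0.0726; rho = 0.63, permutation p = 0.0103, adjusted 0.225), and 0.41 without the 2 farthest. In the 8 it gave 0.24 (exact p = 0.640, adjusted 0.743; rho = 0.19, exact p = 0.665, adjusted 0.772), and 0.00 (-0.000826) without the 2 farthest. Over the 16 libraries 3 other pairs also had an adjusted p under 0.05 for r, and none of the 36 had one for rho. Cavin1 gave r = 0.73 with the mural mean (permutation p = 0.00178, adjusted 0.0320; rho = 0.46, permutation p = 0.0766, adjusted 0.299), and 0.37 without the 2 farthest. With the fibroblast mean Cavin1 gave 0.69 (permutation p = 0.00363, adjusted 0.0330; rho = 0.47, permutation p = 0.0707, adjusted 0.299), and 0.29 without the 2 farthest. Cav1 gave 0.68 with the fibroblast mean (permutation p = 0.00367, adjusted 0.0330; rho = 0.60, permutation p = 0.0154, adjusted 0.225), and 0.36 without the 2 farthest. In the 8 libraries the r of these 3 pairs was 0.81, 0.38 and 0.10 (exact p = 0.0128, 0.354 and 0.880, adjusted 0.0726, 0.486 and 0.932). Their rho was 0.43, 0.10 and 0.12 (exact p, adjusted, 0.449, 0.881 and 0.865). Without the 2 farthest libraries r was 0.17, 0.52 and 0.11, so the 0.81 rested largely on those 2.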

How the data were processed

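Polyadenylated RNA of 24 mouse brain libraries was sequenced on a NovaSeq after NEBNext Ultra preparation, per the labels' protocols. The authors deposited raw counts per gene symbol; HISAT2 2.1.0, featureCounts 2.0.6 and mm39 are named in the submitters' processing notes. Annotation and strand setting are not given in the sources used here. Of counts from 1 to 19, 62.6% to 70.8% per library were even, so they may overstate fragments.

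edgeR 4.0.16 (R 4.3.3) was fitted to all 24 libraries: filterByExpr, TMM, 6 groups plus the column term (17 residual degrees of freedom), quasi-likelihood F tests. A second fit had the 6 months and the difference of the E codes at each time code (14). Log2 CPM used a prior count of 2. Scripts were tested on simulated data. Permutations numbered 100000 over 16 libraries and were exact over 8. Alternatives were RLE and upper-quartile factors, 2 filters, DESeq2 1.42.0, limma-voom 3.58.1, a replicate block, other column terms, left-out libraries and thresholds.

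Members, lists and the column term were chosen with earlier results of these data known. The genes named are the 6 members, the 4 most like Ahnak and Cav1 over 16 libraries (median of at least 1 CPM), and at most 4 of each list with the smallest p; others (Snap25, Gh, Hbb-bs and defining markers) describe the libraries. Libraries sharing a number had a median correlation of -0.01 (60 pairs), against 0.01 for different numbers (180 pairs), so numbers were not used as pairs. These pairs pool all groups, so the check cannot exclude that numbers pair E3 with E4 within a time code.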

Additional observations from a re-analysis of the deposited data

How the results depend on the processing

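The count of the 6 genes called from time code 10 to 15 changed in 24 of 36 alternatives. It was 1 as reported, 2 with DESeq2, and 0 with no term for column numbers, in only the 16 libraries of other columns, when the 3 libraries above 100 CPM of Hbb-bs were left out, and at an adjusted p of 0.01. With a replicate block it was also 0 (Ahnak -0.55, edgeR adjusted p = 0.181). The labels do not say whether library numbers pair the samples. Leaving out single libraries gave 0 to 2. From 05 to 10, DESeq2 called 1 of the 6. The column difference of Cav2 ran from -0.80 (without E3-10 1) to -0.64. Small values turned sign. Cav2 for E4 minus E3 at time code 10 was -0.0100 in the 16 libraries, -0.0794 without the 2 libraries with Gh above 1000 CPM, and -0.11 to 0.22 without single libraries. From 05 to 15, in the 16 libraries, Cavin2 was 0.00913 and Cav1 0.00595; Cavin2 was -0.0791 to 0.0150 without single libraries; Cav2 was -0.0153 with no column term and -0.0152 without the Hbb-bs libraries. The change of the Cav2 E difference from 05 to 10 was 0.0230 with limma-voom, 0.14 with no column term, 0.0711 without the Hbb-bs libraries, 0.30 with a term for each set of 3 adjacent columns, and -0.14 to 0.19 without single libraries. The cause was not tested. Of 1540 other recomputed values, the fold changes of single genes and the counts over all genes, 1384 stayed, 111 moved, 21 turned sign, 21 lost a call and 3 gained one. Over all genes, counts of calls ran from 0 to 40 for E4 minus E3 at time code 10, 0 to 18 from 05 to 10, 0 to 36 from 05 to 15, 0 to 17 from 10 to 15, 0 to 19 and 0 to 20 for the changes of the E difference from 05 to 10 and from 10 to 15, 0 to 3 for February minus January, 0 to 89 for April minus March and 0 to 1 for June minus May.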
